A study of Mus musculus with 41 samples.

Results

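The high fat diet was compared with its control diet at ZT4, 4 h after lights on, in mouse epidermal stem cells. Every array labelled with that time was used: 4 arrays from the high fat diet and 3 from the control diet, or 7 of the 41 in the series. All 17097 genes that the array names were tested. The mice were wild type C57B6/J females, aged 15 weeks, that had eaten a high fat diet or the matching control diet freely for 7 weeks from 8 weeks of age. The series holds both diets at 6 zeitgeber times spaced 4 h apart, where ZT0 is lights on, with 2 to 4 arrays in a group. The design text plans 4 mice for each diet and time. The labels number the arrays as replicates without saying that each is a mouse of its own. The p-values therefore cover array-to-array spread, part of which may be technical.

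The basal layer of the epidermis and the hair follicle bulge hold the stem cells that renew the skin and the hair. A circadian clock runs in these cells: the activators BMAL1 and CLOCK switch on the period and cryptochrome repressors, which then feed back on the activators. DNA replication, oxidative metabolism and lipid use in the epidermis are known to follow the time of day. A diet rich in fat supplies fatty acids for mitochondrial oxidation, which competes with pyruvate as a fuel. ZT4 falls in the light phase, when mice mostly rest and eat little.

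The label of the cells was set against markers of the epidermis. Values are on the log2 scale throughout, with array medians near 6.4. The basal keratin Krt5 lay between 12.68 and 12.74 on the high fat arrays and between 12.61 and 12.67 on the control arrays, far above those medians. The bulge marker Cd34 lay between 4.74 and 5.24 on the high fat arrays and between 5.58 and 5.90 on the control arrays, below the array median on all 7. Krt10, a keratin of the differentiating layers, was far above as well, at 11.99 to 12.06 on high fat and 11.93 to 11.95 on control arrays. How the cells were isolated is not given in the sources used here. Which genes lie at background cannot be told without scanner files, so no marker was read as absent.

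The 7 arrays were close to each other. Correlations over the 17097 genes tested ran from 0.989 to 0.994 within the high fat diet, stood at 0.993 within the control diet, and ran from 0.989 to 0.994 between the diets. High fat replicate 4 was closest to control replicate 3 (r = 0.994). The array medians were 6.42 to 6.43 on the high fat diet and 6.41 on the control diet.

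At ZT4, 66 of 17097 genes (0.386%) differed between the diets at a Benjamini-Hochberg adjusted p under 0.05 in limma. Of these, 31 were higher and 35 lower on the high fat diet. With the array medians of all probe sets subtracted 69 passed, and 29.0% of them were higher, against 47.0% as deposited. The differences were small: their median size was 0.37 on the log2 scale, 13 genes reached 1.5-fold, and Ccn4 alone reached 2-fold. Over all genes the median difference was 0.00 and its median standard error was 0.10. At an unadjusted p under 0.05 there were 2039 genes (11.9%). In 65 of the 66 genes the arrays of the diets did not overlap, against 1914 of all genes tested (11.2%, with high fat above in 6.04% and below in 5.16%), and Fbn2 was the gene whose arrays did. The 66 were picked on these same arrays, so that separation was largely fixed in advance. The spread came from all 41 arrays, and with the 7 ZT4 arrays alone no gene passed in limma (smallest adjusted p = 0.0967, with 1817 genes under an unadjusted 0.05). Without high fat replicate 1 no gene passed either, with 1768 genes under an unadjusted 0.05, while 113 passed without control replicate 3. Leaving out control replicate 1, control replicate 2 or high fat replicate 2, 3 or 4 gave 9, 7, 12, 29 and 11 genes. RNA was pooled over the cells of a sample, so fewer cells of a type and less RNA per cell cannot be told apart in any of these differences.

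**Figure D1:**
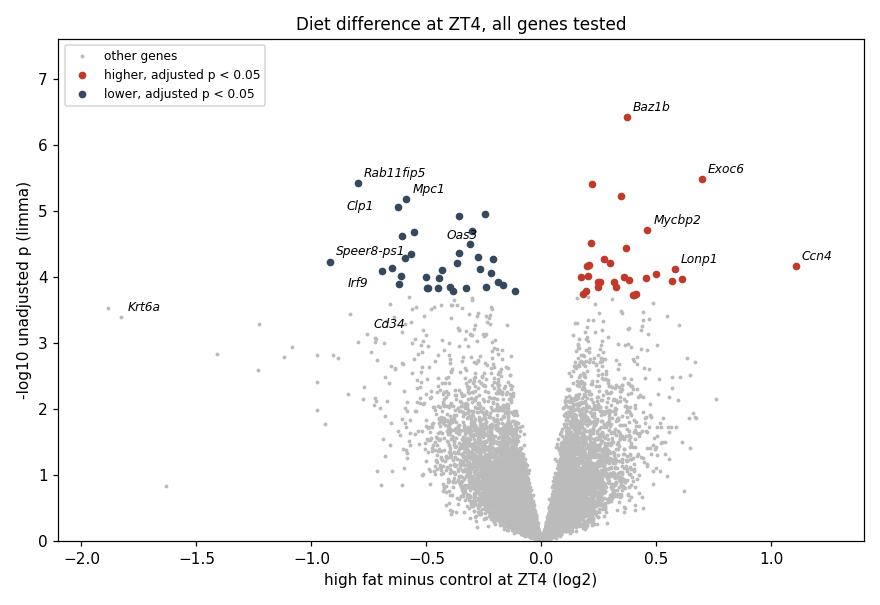
The difference between the diets at ZT4 is plotted for each of the 17097 genes: the horizontal axis is high fat minus control in log2 units, the vertical axis is -log10 of the unadjusted limma p. Red points are the 31 genes that were higher and dark blue points the 35 that were lower at an adjusted p under 0.05. The passing genes lie between -0.92 (Speer8-ps1) and 1.10 (Ccn4), and Krt6a and Cd34 lie far to the left without passing.

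The largest rise was in Ccn4, a secreted matricellular protein induced by Wnt signalling. Ccn4 measured 7.18, 7.97, 7.23 and 6.58 on the high fat arrays, against 6.13, 6.18 and 6.10 on the control arrays. The control arrays were nearly equal, while the high fat arrays spread over more than 1 log2 unit, all of them above the control. The difference was 1.10 ± 0.24 (SE), or 2.15-fold (limma adjusted p = 0.0419). A dimmer probe set of Ccn4 differed by 0.43 and did not pass.

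The smallest p of all genes belonged to Baz1b, a bromodomain protein of chromatin remodelling complexes. Baz1b measured 9.36, 9.23, 9.15 and 9.33 on the high fat arrays, against 8.90, 8.84 and 8.95 on the control arrays. The groups were well apart, although the step was only 0.37 ± 0.06 (SE), or 1.29-fold (limma adjusted p = 0.00663). Its second probe set differed by 0.05. Baz1b passed under 19 of the 21 alternative settings tried. The exceptions were the ZT4 arrays alone and the fit without high fat replicate 1 (adjusted p over all settings 0.00213 to 0.227). The other genes named for a rise or fall passed under fewer settings. Ccn4 passed under 9 of 20, Rfc2 under 5 of 21 and Rad9b under 3 of 21.

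The other changed genes are set out by known role, a grouping made after their values were seen and not tested. Several that rose serve membrane traffic and the cell surface. Exoc6, a subunit of the exocyst that tethers secretory vesicles to the plasma membrane, measured 7.48, 7.29, 7.50 and 7.46 on high fat arrays, against 6.87, 6.37 and 6.98 on control arrays. Every high fat array exceeded the highest control array, with a difference of 0.70 ± 0.12 (SE, limma adjusted p = 0.0169). Its other probe sets, both dimmer, differed by 0.17 and 0.09. Stx2, a syntaxin of membrane fusion, rose by 0.38 ± 0.09. Clba1, a clathrin-binding protein, rose by 0.37 ± 0.08, with 0.03 in its other probe set. Rhbdf1, the inactive rhomboid iRhom1 that guides the shedding protease ADAM17, measured 10.66 to 10.89 on high fat arrays and 10.35 to 10.49 on control arrays. Tnfrsf21, known as death receptor 6, measured 7.97, 7.89, 7.66 and 7.83 on high fat arrays, against 7.20, 7.36 and 7.47 on control arrays, and its other probe set differed by a like 0.45. Ptafr, the receptor for platelet-activating factor, rose by 0.31 ± 0.07, with 0.22 in its other probe set.

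Other rises were in genes of protein turnover, DNA replication and transcription. Lonp1 encodes the ATP-dependent protease of the mitochondrial matrix. It measured 8.28, 8.48, 8.29 and 8.35 on high fat arrays, against 7.95, 7.71 and 7.65 on control arrays, a difference of 0.58 ± 0.13 (SE, limma adjusted p = 0.0419). Mycbp2, a large E3 ubiquitin ligase, measured 9.63, 9.63, 9.56 and 9.78 on high fat arrays, against 9.20, 9.07 and 9.29 on control arrays. The other 3 probe sets of Mycbp2 differed by 0.06, -0.16 and -0.04, so its rise rests on the brightest of 4. Rfc2, a subunit of the clamp loader that places PCNA on DNA, measured 8.91, 8.84, 8.77 and 8.78 on high fat arrays, against 8.65, 8.23 and 8.39 on control arrays. Of its other probe sets, one differed by a like 0.41 and one by 0.03. Rad9b, a relative of the checkpoint clamp protein RAD9, rose by 0.41 ± 0.10 in its brightest probe set, and the other 2 differed by -0.08 and -0.13. Rfc2 and Rad9b were close to the threshold (limma adjusted p = 0.0499 and 0.0494). The homeobox gene Hoxc8, which marks position along the body axis, measured 8.25 to 8.46 on high fat arrays and 7.67 to 7.82 on control arrays.

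The remaining rises that the naming rule picked were Dalrd3 (0.61), Itpripl2 (0.40), the cyclic nucleotide phosphodiesterase Pde2a (0.35), the microfibril protein Fbn2 (0.32), Prdm11 (0.30), the homeobox gene Gsc2 (0.27) and Gfod1 (0.26). Fbn2 overlapped: its high fat arrays ran from 5.31 to 5.72 and its control arrays from 5.03 to 5.33. The other 11 rises lay between 0.17 and 0.45, and among them were Hspa4, a cochaperone of the HSP110 family (0.20), and Dll4, a Notch ligand (0.20), both singled out after their values were seen.

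**Figure D2:**
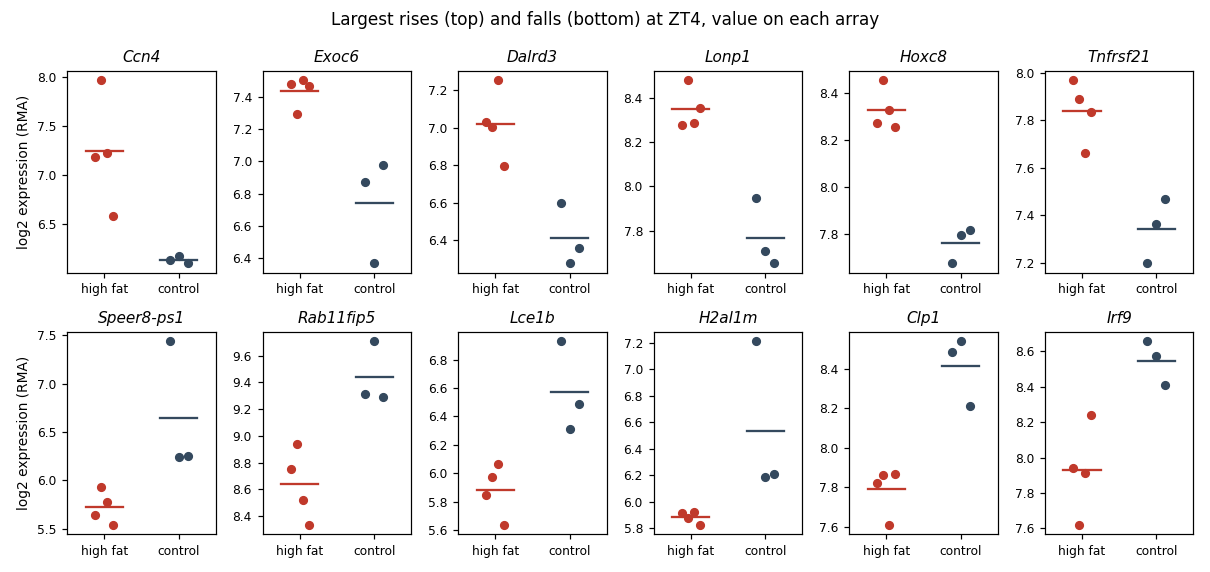
Points show the log2 value on each ZT4 array for the 6 largest rises (top row) and 6 of the largest falls (bottom row), with the 4 high fat arrays on the left in red and the 3 control arrays on the right in blue; bars are group means. No pair of groups overlaps in these panels, and in Speer8-ps1 and H2al1m 1 control array lies far above the other control arrays.

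Among the genes that fell, some act in metabolism or in the processing of RNA. Mpc1, a subunit of the carrier that brings pyruvate into mitochondria, measured 8.45, 8.62, 8.58 and 8.53 on high fat arrays, against 9.14, 9.28 and 8.98 on control arrays. The highest high fat array lay below the lowest control array, and the difference was -0.59 ± 0.11 (SE) (limma adjusted p = 0.0190). Echdc1, which removes ethylmalonyl-CoA formed in fatty acid metabolism, measured 7.63, 7.65, 8.24 and 8.03 on high fat arrays, against 8.31, 8.60 and 8.59 on control arrays. Clp1, an RNA kinase of pre-mRNA 3′ end formation and tRNA splicing, measured 7.82, 7.86, 7.61 and 7.86 on high fat arrays, against 8.48, 8.54 and 8.21 on control arrays (difference -0.62 ± 0.12, SE). Pnrc2, a nuclear receptor coactivator that also binds the decapping machinery, fell by 0.45, with its other probe sets at -0.21 and 0.21.

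Rab11fip5, an effector of the recycling endosome GTPase RAB11, showed the second largest fall, after Speer8-ps1. It measured 8.75, 8.94, 8.52 and 8.34 on high fat arrays, against 9.31, 9.71 and 9.29 on control arrays, with a difference of -0.80 ± 0.14 (SE, limma adjusted p = 0.0169). A far dimmer probe set of Rab11fip5 differed by 0.26 the other way, without passing. Sytl2, a RAB27 effector of vesicle docking, fell by 0.44. Serinc3, a multipass membrane protein, measured 9.54, 9.35, 9.38 and 9.37 on high fat arrays, against 9.77, 9.78 and 9.79 on control arrays, and its other 3 probe sets lay lower by less, from -0.11 to -0.03.

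A pair of interferon pathway genes fell. Irf9, the DNA-binding part of the factor that carries the type I interferon signal, measured 7.94, 7.62, 7.91 and 8.24 on high fat arrays, against 8.66, 8.57 and 8.41 on control arrays. High fat replicate 4 came closest to the control. Oas3, an interferon-induced synthetase of 2′-5′ oligoadenylate, measured 5.53, 5.68, 5.66 and 5.57 on high fat arrays, against 6.03, 5.84 and 6.05 on control arrays (difference -0.36 ± 0.08, SE). The list of interferon response genes, which holds neither of them, had no passing member: 9 of its 12 measured genes were lower and 3 higher on high fat, with a median of -0.07. Irf7 differed by -0.04, Ifit1 by -0.04, Ifit3 by -0.08 and Oasl2 by 0.01, and the list ran from -0.48 in Gbp2 to 0.43 in Usp18.

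The other falls by the naming rule included Ttc33 (-0.61), Setd3, which methylates actin (-0.57), Rnf150 (-0.43), the deubiquitinase Otud7b (-0.40) and Fam220a (-0.38). For Otud7b 1 of 3 further probe sets, and for Fam220a its only other one, differed in the opposite direction. Of the 66 genes, 24 have more than 1 probe set. In 15 of those all other probe sets differed in the same direction, and in 9 at least 1 differed in the opposite direction. The other 15 falls lay between -0.12 and -0.56, among them the chemokine receptor Cxcr3 (-0.30) and complement factor Cfi (-0.21, singled out after its value was seen).

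Some falls rested in part on 1 control array. Speer8-ps1, a pseudogene of a spermatogenesis-associated family, measured 5.65, 5.93, 5.77 and 5.54 on high fat arrays, against 7.44, 6.25 and 6.25 on control arrays. Control replicate 1 stood more than 0.5 log2 units above the mean of the other control arrays in 7 of the 35 genes that fell, a count made after the values were seen: Speer8-ps1, H2al1m, Speer4b, Rian, Spin2d, Lce1b and 1700128F08Rik. H2al1m is a testis histone variant, Rian a maternally expressed noncoding RNA of an imprinted locus, and Lce1b a late cornified envelope protein. Without control replicate 1, Speer8-ps1 differed by -0.53, Lce1b by -0.52, Speer4b by -0.34, H2al1m by -0.31, Spin2d by -0.30 and Rian by -0.26, and none of these 6 passed (limma adjusted p from 0.314 to 0.419). Only 9 genes passed in that fit, and 7 of the 40 named for a rise or fall. Failing there was therefore not particular to these 6. In each of these genes the high fat arrays lay below every control array to begin with, which leaving out a control array cannot change. Speer genes and H2A-like genes have near-identical copies, so which copy a probe set reads is uncertain.

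Promoters were searched because clock factors, interferon factors and nuclear receptors each have a known binding motif. RefSeq promoter windows were found for 51 of the 66 genes, and the 250 bases before the gene start were searched on both strands. The E-box CACGTG, bound by CLOCK and BMAL1, was in 2 of these 51 genes, against 6.86% of the 27025 genes in the RefSeq table, a gene counting if any of its windows holds the motif. The core of the interferon-stimulated response element, which is GAAA, 2 bases of any kind and GAAA again, was in 3 genes, against 3.46% of all genes. The nuclear receptor motif AGGTCA was in 12 genes, against 15.8% of all genes. None of the 3 motifs contains another. The 150 bases before the start of 2 named genes with a match, chosen after the values were seen, are shown 5′ to 3′ in the sense of the gene, with the match in capitals (RefSeq, GRCm38.p6). The Oas3 window is chr5:120777660-120777809 on the minus strand, and the Lonp1 window is chr17:56626904-56627053 on the minus strand.
Oas3: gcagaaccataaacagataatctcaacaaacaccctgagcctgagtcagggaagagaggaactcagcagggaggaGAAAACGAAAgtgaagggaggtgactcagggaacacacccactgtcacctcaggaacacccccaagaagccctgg
Lonp1: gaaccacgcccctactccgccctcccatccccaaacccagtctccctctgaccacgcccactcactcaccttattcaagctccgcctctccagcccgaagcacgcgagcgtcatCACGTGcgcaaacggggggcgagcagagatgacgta
In Oas3, which fell, the interferon motif starts 75 bases before the gene start. In Lonp1, which rose, the E-box starts 36 bases before it. A match describes letters in the window and not binding.

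Next, 43 gene lists for pathways and cell types were described, with 548 of their 622 genes measured. No member of any list passed the test at ZT4, against 0.386% of all genes, and 57 members (10.4%) had an unadjusted p under 0.05, against 11.9% of all genes. The lists are therefore given by direction and median alone, beside all genes, of which 50.5% were positive with a median of 0.00.

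Replication genes lay slightly higher on high fat. Of 19 S phase genes 18 were positive, with a median of 0.16, and none passed. The mean level of the list overlapped, at 7.57 to 7.82 on high fat and 7.38 to 7.64 on control arrays. Mcm2, a subunit of the replicative helicase, measured 7.44, 7.63, 7.41 and 7.87 on high fat arrays, against 7.25, 6.81 and 6.93 on control arrays. The groups did not overlap, yet the difference of 0.59 ± 0.21 missed the threshold (limma adjusted p = 0.233). Mcm5 differed by 0.35 and Cdt1, a licensing factor, by 0.24, both with overlapping arrays. Leaving out each array in turn gave an S phase median of 0.10 (without high fat replicate 2) to 0.24 (without control replicate 1), with 15 to 19 positive genes. In the mitosis list 12 of 17 genes were negative, with a median of -0.07, and Mki67 differed by 0.07 and Aurka by -0.11. The median of the mitosis list was -0.17 without control replicate 2 and -0.01 without high fat replicate 3, with 1 to 8 positive genes over the arrays left out.

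Genes of mitochondrial respiration and fat burning lay slightly lower on high fat. In oxidative phosphorylation 19 of 23 genes were negative (median -0.12), and in fatty acid oxidation 14 of 18 (median -0.12). The mean levels of both lists overlapped between the diets. They were 10.22 to 10.38 on high fat and 10.33 to 10.49 on control arrays for oxidative phosphorylation. For fatty acid oxidation they were 8.47 to 8.63 and 8.56 to 8.71. Ndufa4 measured 9.49, 9.33, 9.50 and 9.27 on high fat arrays, against 9.76, 9.64 and 9.47 on control arrays, and the groups overlapped. Atp5b, the beta subunit of ATP synthase, measured 10.55 to 10.73 on high fat arrays and 10.75 to 10.80 on control arrays, without overlap, and differed by -0.12 ± 0.07. Cpt1a, which carries long-chain fatty acids toward mitochondria, differed by -0.04, and Acadl, a dehydrogenase of their oxidation, by -0.16. Of 15 PPAR target and lipid handling genes 11 were negative, among them Angptl4, an inhibitor of lipoprotein lipase (-0.30), and Pdk4, which holds back pyruvate dehydrogenase (-0.31). Leaving out each array in turn gave a median of -0.14 to -0.08 for oxidative phosphorylation and -0.18 (without control replicate 3) to -0.07 (without control replicate 1) for fatty acid oxidation.

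Ribosomal protein genes were negative in 16 of 19, by a median of only -0.04, and antioxidant genes in 14 of 17 (median -0.07). Immediate early genes were positive in 18 of 19 (median 0.07), with Fos at 0.04, Egr1 at 0.07 and Junb at 0.22. The immediate early median was 0.04 without high fat replicate 2 and 0.14 without high fat replicate 3, with at least 13 genes positive, and the antioxidant median was -0.02 without control replicate 2. The ribosomal median was -0.02 without control replicate 2. Cholesterol synthesis genes were positive in 12 of 17 (median 0.06), but without control replicate 3 the median was -0.00050, with 8 positive, so the direction rests on that array. Hmgcs1, whose enzyme makes HMG-CoA, measured 7.40, 7.89, 8.19 and 7.73 on high fat arrays, against 6.93, 7.22 and 7.33 on control arrays, without overlap (difference 0.65 ± 0.20, limma adjusted p = 0.171), while Sqle differed by -0.21, Idi1 by 0.16 and Fdps by -0.08, all with overlap. Subtracting the array medians of all probe sets put the median difference of all genes at -0.01, and the medians of the lists named here kept their sign under that centring.

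Among list members, skin keratinocyte genes came nearest to the threshold without passing. Krt6a, a keratin of wounded skin and of the companion layer of the hair follicle, measured 6.47, 7.49, 7.28 and 6.84 on high fat arrays, against 8.35, 9.32 and 8.88 on control arrays. The highest high fat array lay well below the lowest control array, and the difference was -1.83 ± 0.46 (SE), but the adjusted p was 0.0687 in limma. Its close relative Krt6b (-0.72) and its pairing partner Krt16 (-0.61) overlapped between the diets, and the list of stress keratins and alarmins had 9 of 13 genes positive. Cd34 measured 4.74, 4.95, 5.14 and 5.24 on high fat arrays, against 5.90, 5.85 and 5.58 on control arrays (difference -0.76 ± 0.20, limma adjusted p = 0.0907). The bulge genes Lgr5, an R-spondin receptor of the Wnt pathway (-0.73), and Lhx2, a homeobox factor (-0.41), were also lower on every high fat array, while Sox9 was higher on every one (0.35). None of these passed, and the bulge list as a whole had 8 of 15 genes positive.

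No marker of another cell type passed the test. Leukocyte and Langerhans cell genes were negative in 10 of 13 (median -0.07) and T cell genes in 8 of 10 (median -0.06). The leukocyte median was -0.01 without control replicate 2 and -0.11 without control replicate 1, and the T cell median was -0.10 without high fat replicate 4. The mean level of the T cell list ran from 6.38 to 6.59 on high fat arrays and from 6.53 to 6.58 on control arrays, and high fat replicates 1, 2 and 3 lay below every control array. Thy1 differed by -0.51, Cd3e by -0.34, Cd3g by -0.26 and Cd3d by 0.13. The mean level of the leukocyte list ran from 6.99 to 7.12 on high fat and from 7.10 to 7.19 on control arrays. Cxcr3, which T cells use, fell beside them, and the part of these cells in the result was not tested. Upper hair follicle genes were positive in 7 of 7 (median 0.16), with Krt79 at 0.32 and Defb6 at 0.38, and 5 to 7 were positive with each array left out. The median was 0.08 without high fat replicate 2 and 0.29 without control replicate 1. Their mean level overlapped, at 9.65 to 9.99 on high fat and 9.44 to 9.88 on control arrays.

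**Figure D3:**
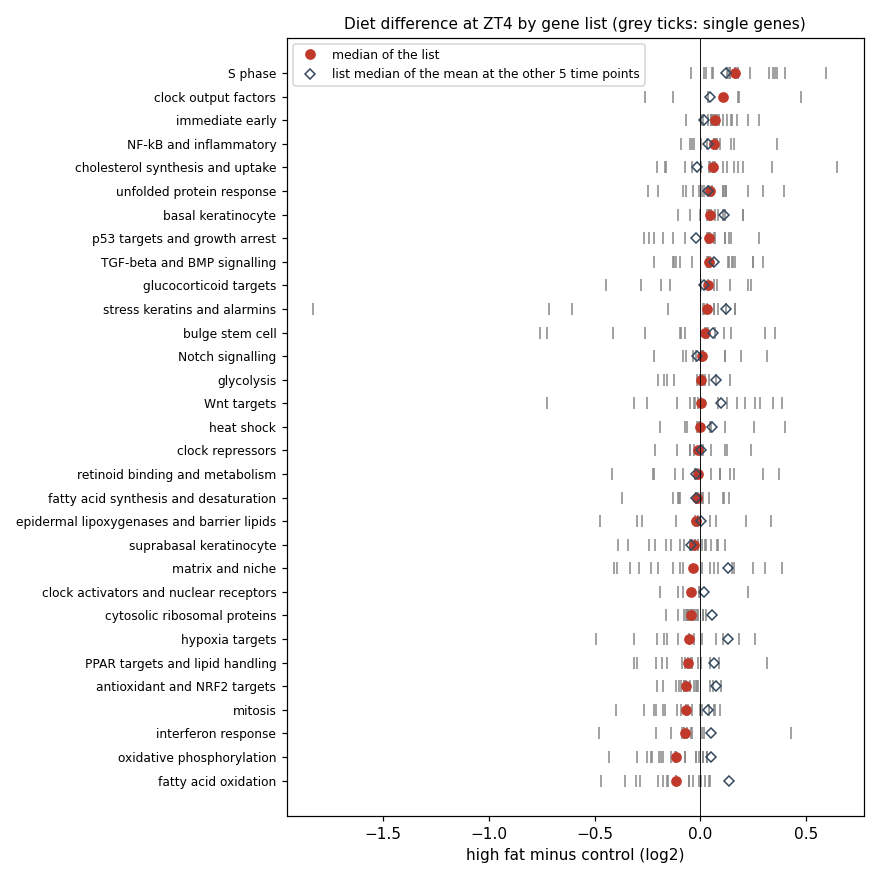
Each row is 1 of the 31 pathway lists: grey ticks are single genes, the red point is the list's median difference at ZT4 (high fat minus control, log2) and the open diamond the list's median of the mean difference at the other 5 time points. The medians at ZT4 lie between -0.12 and 0.16, and the leftmost tick, in the row of stress keratins and alarmins, is Krt6a at -1.83.

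The clock was compared last among the lists. None of its 22 measured genes passed at ZT4, and no clock gene passed under any alternative run across all genes. Arntl, which encodes BMAL1, measured 9.54, 9.06, 8.75 and 9.24 on high fat arrays, against 8.96, 8.48 and 9.33 on control arrays, and overlapped. Dbp, an output factor switched on by the clock, measured 6.99, 7.62, 7.62 and 6.99 on high fat arrays, against 6.86, 6.74 and 6.89 on control arrays. The Dbp arrays did not overlap, but the difference of 0.47 ± 0.18 had an adjusted p of 0.270 in limma. Npas2, a relative of CLOCK, was lower on all high fat arrays (8.40 to 8.59, against 8.65 to 8.75 on control) by 0.19 (limma adjusted p = 0.320). The repressors Per1 (0.24), Per2 (0.05), Cry1 (-0.05) and Cry2 (-0.11) overlapped between the diets. Per3 differed by 0.12 with no overlap, and its other 4 probe sets differed by 0.20, 0.55, 0.38 and -0.06. The other probe set of Per2 differed by 0.51 and that of Arntl by -0.19, and none of these probe sets passed.

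The design also asks whether the diets differ at ZT4 in another way than at other times. The difference at ZT4 minus the mean of the differences at the other 5 times was tested in the same fit, with arrays that the ZT4 groups do not share. It passed in 285 genes (1.67%), 82 positive (0.480%) and 203 negative (1.19%). Of the 66 genes called at ZT4, 50 were among them. The contrast contains the ZT4 difference that picked those genes, so a large overlap is built in. The count of 285 rested on the ZT8 and ZT12 arrays: it was 119 without ZT8, 67 without ZT12 and 26 without both. Leaving out control replicate 1 gave 53 genes, control replicate 2 gave 39, high fat replicate 1 gave 115, high fat replicate 2 gave 155 and high fat replicate 4 gave 131.

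Mycbp2 stood apart furthest by its p, in its brightest probe set. Its other probe sets differed at ZT4 by 0.06, -0.16 and -0.04, and their contrasts are not given here. The brightest probe set differed by -0.27, -0.73, -0.53, -0.07 and 0.06 at ZT0, ZT8, ZT12, ZT16 and ZT20, beside 0.46 at ZT4. Its contrast was 0.77 (limma adjusted p = 0.000221). Rab11fip5 differed by -0.80 at ZT4 and by 0.23, 0.53, -0.11, 0.31 and 0.24 at the other times (contrast -1.04, adjusted p = 0.00107 in limma). Mpc1, lower at ZT4, was higher on high fat at ZT8 (0.64) and ZT12 (0.33), and passed at both. Morc1, a germline chromatin ATPase gene, and Cxcr3 followed, with contrasts of 0.29 and -0.43. Gna15, a G protein alpha subunit, had a contrast of -0.59 while its ZT4 difference of -0.31 did not pass, and at ZT8 it differed by 1.01.

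In a few genes the direction held over the day. Itpripl2 was higher on high fat at all 6 times, by 0.40 at ZT4 and 0.01 to 0.56 at the others. Tnfrsf21 was higher at all 6 times too, by 0.50 at ZT4 and 0.09 to 0.25 elsewhere. Hoxc8 differed by 0.57 at ZT4 and by 0.75 at ZT12, where it passed, but by -0.16 at ZT8 and -0.29 at ZT20. The contrast passed in none of these 3. Of the 66 genes, 28 had the sign of the mean of the other 5 times, against 47.4% of all genes. None of the 66 also passed at ZT0 or ZT20, where 0.854% and 0.702% of all genes did. At ZT8 8 passed, 2 with the same sign, at ZT12 14 passed, 6 with the same sign, and at ZT16 2 passed, 1 with the same sign, where 8.34%, 18.0% and 1.24% of all genes passed at those times. Across genes, the ZT4 difference correlated with that at ZT0 with r = -0.05, ZT8 -0.15, ZT12 -0.12, ZT16 0.02 and ZT20 0.13, and genes are not independent replicates.

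**Figure D4:**
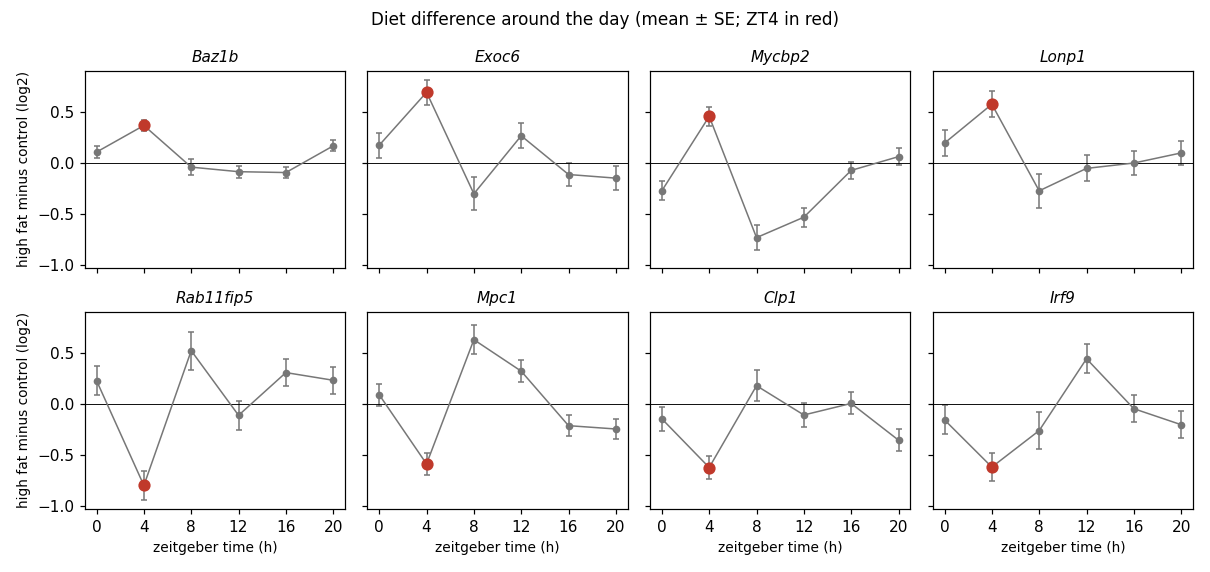
The difference between the diets (high fat minus control, log2, mean ± SE from limma) is plotted against zeitgeber time in h for 8 genes, with ZT4 in red. Baz1b, Exoc6, Mycbp2 and Lonp1 peak at ZT4 and Rab11fip5, Mpc1, Clp1 and Irf9 dip there. Baz1b, Mycbp2, Lonp1 and Mpc1 lie on the other side of 0 at ZT8 and ZT12. All 8 were picked from the genes called at ZT4, so an extreme there is in part built in. For Irf9 the contrast with the other times did not pass (limma adjusted p = 0.0504). Each gene is shown by its brightest probe set, and for Mycbp2 and Rab11fip5 another probe set differed at ZT4 in the opposite direction.

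No list gene had a positive contrast that passed, against 0.480% of all genes. In either direction the contrast passed in 1.64% of list genes, near the 1.67% of all genes. The 9 of 548 list genes that passed were all negative, where 1.19% of all genes passed with a negative contrast. They were Cd34 (ZT4 difference -0.76), the respiratory complex I subunit Ndufa1 (-0.25), the carnitine carrier Slc25a20 (-0.47), the isomerase of unsaturated fatty acids Eci2 (-0.29), Angptl4 (-0.30), the ceramide synthase Cers3 (-0.47), Lce1m (-0.34), the collagen gene Col6a1 (-0.41) and Npas2 (-0.19). None of them passed at ZT4 itself. The median of fatty acid oxidation genes was 0.05, -0.12, 0.26, 0.41, 0.09 and -0.08 in order from ZT0 to ZT20. That of oxidative phosphorylation genes was -0.02, -0.12, 0.25, 0.29, -0.08 and -0.19 at the same times. ZT8 and ZT12 stood highest in both lists, and for oxidative phosphorylation ZT20 lay below ZT4.

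Set against ZT0, 4 h earlier, the diet difference changed in 66 genes (0.386%), of which 16 were among the 66 called at ZT4. That contrast also contains the ZT4 difference by which the called genes were picked. Ccrl2, a receptor that binds chemerin, differed by -0.55 at ZT4 and 1.52 at ZT0 (contrast -2.06, limma adjusted p = 0.000313). Zfp672, a zinc finger gene, differed by 0.49 at ZT4 and -0.72 at ZT0. Trp53inp2, an autophagy factor, differed by -0.17 at ZT4 and 0.53 at ZT0, Tial1, an RNA-binding protein of stress granules, by 0.29 at ZT4 and -0.36 at ZT0, and Coa8, an assembly factor of respiratory complex IV, by 0.37 at ZT4 and -0.46 at ZT0. All 5 passed at ZT0 and none at ZT4. Mice of 1 collection day belonged to 1 time point, so day and time point cannot be told apart in these contrasts. Whether both diets of a time point shared a day is not settled. Collection day may therefore also differ between the diets in the ZT4 difference itself.

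**Figure D5:**
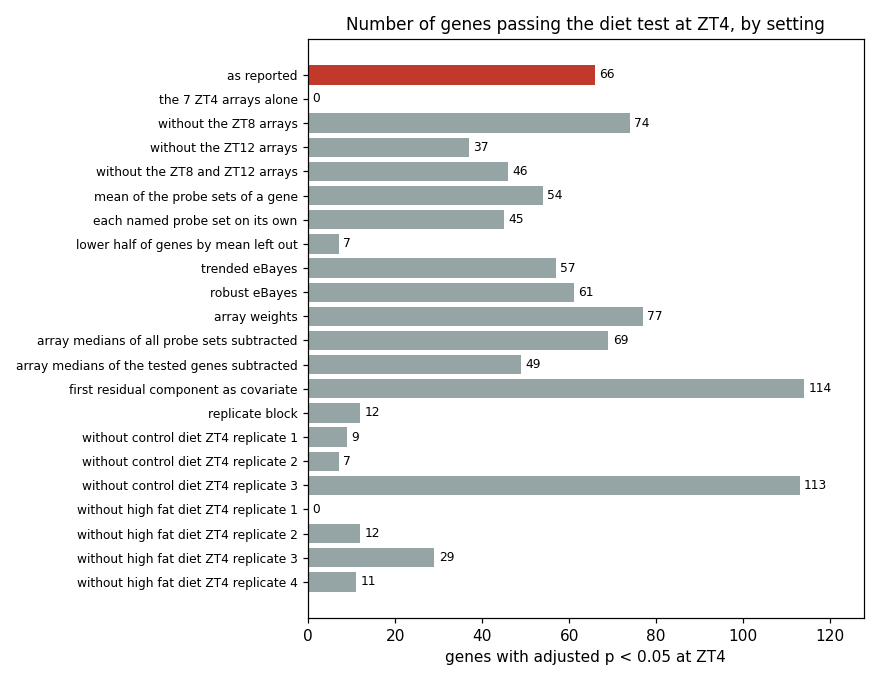
Bars give the number of genes with an adjusted p under 0.05 for the ZT4 difference as reported (red, 66) and under each alternative across all genes (grey), on an axis from 0. The count runs from 0, for the ZT4 arrays alone and without high fat replicate 1, to 114 with the leading residual component as a covariate.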

How the data were processed

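Total RNA of epidermal stem cells was amplified with WTA2 (25 ng in, 17 cycles) and 8 µg of the product was biotinylated, per the labels' protocols. The authors deposited log2 values made with RMA, per the submitters' processing notes, which corrects background, normalizes between arrays and summarises probes. The sources used here give no version of it. The range of the values bears out the log2 scale. Scanner files were not used here, so signal over background is not known, and precision is limited by how many arrays there are.

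Of 45141 probe sets, 28898 name a single gene in the annotation of the platform. Another 551 with several genes were left out, and 15692 are unnamed here, 104 control probe sets among them. The annotation can be old: Entrez identifiers were used to update symbols, and 17055 of 17097 are in the reference gene table. The probe set with the highest mean stood for a gene that has several (7180 genes). No filter on low values was applied.

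A mean for each of the 12 groups was fitted to all 41 arrays with limma 3.58.1 in R 4.3.3 (residual degrees of freedom 29, prior 2.63). The contrasts tested were the diet difference at ZT4, high fat minus control, the same minus the mean of the other 5 time points, and minus ZT0, each with Benjamini-Hochberg adjustment over all genes, two-sided, at 0.05. Tables were read with data.table (version 1.17.8), and Python 3.11.15 with matplotlib 3.10.9 drew the figures. The fit was tested on simulated data. For single genes, an exact permutation test over the 35 splits of the 7 arrays cannot go below p = 0.0286, which 54 of the 66 genes called reached. These genes were picked on the same 7 arrays, so the count was largely fixed in advance and lends no separate support. The share over all genes is not given here.

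Named genes are, past the threshold, the top 20 rises and the top 20 falls by size with predicted genes passed over, the clock genes, the leading 4 measured members of each list, list members that passed, and the 5 smallest p of each contrast between times. The genes and lists were chosen with earlier results of these data known. List members without a named probe set were not analysed here. Alternatives covered the arrays in the fit, the choice of probe set, a filter, the variance model, centring, a residual component, a replicate block and each ZT4 array left out. The design text does not settle whether both diets of a time point were collected on 1 day, so collection day may differ between the diets.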

Additional observations from a re-analysis of the deposited data

Results flagged for a closer look

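In 70 genes named, 1 high fat array stood far from the other 3 at ZT4 in 4 genes. Clp1 was low on replicate 3, at 7.61. Ttc33 was low on replicate 2, at 7.63. Setd3 was high on replicate 4, at 7.85, and Serinc3 was high on replicate 1, at 9.54. All 4 fell on the high fat diet, and each of these arrays still lay below every control array. The gap is one that chance gives in about 1 in 20 groups.

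The diet difference at ZT4 differed from the mean of the other 5 time points, at a limma adjusted p under 0.05, in 40 of the 70 genes. The difference was more positive at ZT4, with the contrast in log2 units in brackets, for Ccn4 (1.01), Mycbp2 (0.77), Exoc6 (0.72), Dalrd3 (0.71), Coa8 (0.63), Lonp1 (0.58), Zfp672 (0.51), Tial1 (0.49), Rfc2 (0.46), Rad9b (0.46), Stx2 (0.43), Clba1 (0.43), Rhbdf1 (0.41), Baz1b (0.36), Pde2a (0.36), Morc1 (0.29), Prdm11 (0.29), Gfod1 (0.28) and Gsc2 (0.26). It was more negative at ZT4 for Speer8-ps1 (-1.06), Rab11fip5 (-1.04), Lce1b (-0.76), H2al1m (-0.71), Mpc1 (-0.71), Ttc33 (-0.69), Setd3 (-0.67), Echdc1 (-0.64), Speer4b (-0.63), Pnrc2 (-0.61), Gna15 (-0.59), Spin2d (-0.57), Rian (-0.55), Clp1 (-0.54), Serinc3 (-0.48), Sytl2 (-0.48), Otud7b (-0.46), Cxcr3 (-0.43), Trp53inp2 (-0.35), Npas2 (-0.34) and Oas3 (-0.32). Against ZT0, the difference was more negative at ZT4 in Ccrl2 (-2.06) and Trp53inp2 (-0.70), and more positive in Zfp672 (1.20), Coa8 (0.83) and Tial1 (0.65). The genes were picked for their difference at ZT4 or for these contrasts, so the share that passed is not a result about them.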

How the results depend on the processing

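In the 40 genes named for a rise or fall, the probe set that stands for the gene kept its direction under each alternative in which it was tested. These genes were picked on the same arrays and, Fbn2 aside, did not overlap between the diets, so that outcome was largely fixed in advance. The average over all probe sets of a gene kept the direction too. In 9 of the 24 called genes with several probe sets, at least 1 other probe set had the opposite sign. The number passing changed with the setting. Against 66 genes, limma gave 0 with the 7 ZT4 arrays alone (1817 at an unadjusted p under 0.05), 37 without ZT12, 7 of the original 66 with the dimmer genes left out, 114 with the leading residual component and 12 with the replicate block. Leaving out each ZT4 array in turn gave 0 to 113. For the contrast with the other 5 times, against 285 genes, the counts were 119 without ZT8, 67 without ZT12, 26 without both, 183 with the dimmer genes left out, 482 with the residual component, 153 with the replicate block and 39 to 358 without each array. For the contrast with ZT0, against 66 genes, they were 112 with each probe set on its own, 182 with array weights, 218 with the residual component and 28 to 83 without each array. Of the genes called at ZT4, those sharing the sign of the mean of the other times numbered 28, and 12 without ZT12, 2 with the dimmer genes left out, 16 with the medians of the tested genes subtracted, 43 with the residual component, 3 with the replicate block and 0 to 40 without each array. The lower counts without arrays follow in part from fewer samples, and otherwise the cause was not tested. At ZT4, same-numbered arrays of the diets had residual correlations of -0.05, 0.03 and -0.27. Other matches ran from -0.26 to 0.36, highest for high fat replicate 4 with control replicate 3. Whether the numbers mark a pairing or a batch was not tested, so the calls lost under the block are given without a reading. Exact permutation gave Npas2 p = 0.0286, unadjusted and the smallest it can give.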
